A study of Homo sapiens with 6 samples.

Results

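Chromosome 19 carries long tandem arrays of genes for C2H2 zinc finger proteins, and 164 of them were followed here in myeloma cells after depletion of Che-1. They were chosen as all genes whose symbol is ZNF and a number and whose transcripts the deposited transcript table places on chromosome 19. They made up 164 of the 12075 genes of that table and 220 of its 18716 transcripts, and each also had a value in the spike-in-normalized gene table. The samples were the multiple myeloma line KMS-27, of human origin and labelled as bone marrow, transfected with an siRNA against Che-1 (siChe-1, 3 libraries) or a control siRNA (siControl, 3 libraries). Che-1 is the protein encoded by AATF. All 6 libraries came from this 1 line, and each started from 500 ng of RNA depleted of ribosomal RNA and processed with a strand-specific kit. The labels give neither the time after transfection nor separate cultures, so the spread behind each p-value is that between libraries and may be technical only.

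Most C2H2 zinc finger proteins of these arrays carry a KRAB domain at the N-terminus and a run of fingers that reads DNA, often the DNA of retrotransposons. The KRAB domain binds TRIM28, a scaffold that brings the histone methyltransferase SETDB1 and heterochromatin proteins to the bound site, where histone H3 is methylated at lysine 9. The arrays grew by repeated tandem duplication, so neighbours are similar in sequence, and their mRNAs are usually scarce. The bodies of the genes themselves are known to be covered by this same repressive mark.

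The promoters of the 2 members with the largest falls and the 2 with the largest rises are shown because these genes carry the comparison between the groups. The sequences are from RefSeq on GRCh38.p14, run from 250 bases before the annotated start to 50 bases after it, and read 5′ to 3′ on the strand of the gene. ZNF468 (chr19:52857570-52857869, minus strand) and ZNF544 (chr19:58228664-58228963, plus strand) were lower in siChe-1. ZNF333 (chr19:14689798-14690097, plus strand) and ZNF358 (chr19:7515853-7516152, plus strand) were higher. Capitals mark CCGGAAG on either strand, a core recognised by ETS family factors.
ZNF468: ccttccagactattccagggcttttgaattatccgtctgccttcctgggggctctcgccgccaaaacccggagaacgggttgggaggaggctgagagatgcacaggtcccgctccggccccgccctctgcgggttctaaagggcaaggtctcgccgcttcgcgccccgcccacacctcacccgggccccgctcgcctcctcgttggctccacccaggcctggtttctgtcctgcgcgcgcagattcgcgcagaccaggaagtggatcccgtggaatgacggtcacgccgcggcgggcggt
ZNF544: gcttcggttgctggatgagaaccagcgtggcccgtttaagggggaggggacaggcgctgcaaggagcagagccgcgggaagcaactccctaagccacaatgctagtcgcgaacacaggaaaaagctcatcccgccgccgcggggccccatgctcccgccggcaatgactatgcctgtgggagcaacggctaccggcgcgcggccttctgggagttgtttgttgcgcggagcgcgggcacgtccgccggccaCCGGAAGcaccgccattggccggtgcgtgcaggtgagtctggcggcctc
ZNF333: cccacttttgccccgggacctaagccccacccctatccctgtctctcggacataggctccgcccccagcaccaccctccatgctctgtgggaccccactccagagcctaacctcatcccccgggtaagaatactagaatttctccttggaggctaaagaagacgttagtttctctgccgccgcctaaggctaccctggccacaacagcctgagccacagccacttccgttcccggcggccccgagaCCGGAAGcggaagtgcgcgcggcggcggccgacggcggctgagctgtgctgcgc
ZNF358: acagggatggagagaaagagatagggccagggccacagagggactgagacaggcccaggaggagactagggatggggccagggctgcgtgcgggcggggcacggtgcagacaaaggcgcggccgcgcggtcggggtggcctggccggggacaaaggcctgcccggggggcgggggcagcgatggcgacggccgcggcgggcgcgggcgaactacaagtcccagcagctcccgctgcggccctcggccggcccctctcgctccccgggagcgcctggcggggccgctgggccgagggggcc
The core stood once in ZNF544 and once in ZNF333, and nowhere in these windows of ZNF468 and ZNF358, so each direction had a promoter with it and a promoter without it. The share of G and C in these windows was 67%, 67%, 64.3% and 76.3% for ZNF468, ZNF544, ZNF333 and ZNF358. The median was 61% over 150 members with such a window and 65.7% over 521 other chromosome 19 promoters.

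AATF itself, the siRNA target, had 14.2, 14.2 and 16.9 FPKM (fragments per kilobase, relative to the size of the library) in siChe-1 libraries, against 97.0, 88.8 and 119 FPKM in siControl libraries. The groups stood far apart. The 3 FPKM values of a group are listed with no replicate numbers, so they are named here by list position. Of 9 plasma cell markers, all 9 were listed, with summed levels of 8693 to 12180 FPKM in siChe-1 and 7327 to 10731 FPKM in siControl. IGJ alone made up most of these sums, with 11458, 7916 and 9782 FPKM in siChe-1 and 9962, 6501 and 9755 FPKM in siControl. By limma, XBP1 and MZB1 were lower in siChe-1 and CD38 was higher. Of 5 T cell, 5 myeloid, 4 erythroid and 6 stromal and epithelial markers, only CD3G and HBB were listed, both under 1 FPKM in every library. HBB had 0.0613 to 0.123 FPKM in siChe-1 and 0.203 to 0.693 FPKM in siControl, and any part of it in the results below was not tested. Reads on the added ERCC spike-in RNAs numbered 835414, 1041244 and 379232 in siChe-1 replicates 1, 2 and 3, against 519573, 351573 and 376170 in siControl replicates 1, 2 and 3. siChe-1 replicate 3 thus stood with the siControl libraries in this number. That library is not in the spike-in-normalized gene table, in which whole reads could be recovered for the other 5 libraries (19042202 to 21658315 gene reads each). No total of gene reads was at hand for siChe-1 replicate 3, so its share of spike-in reads is not known.

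Zinc finger mRNAs were scarce in these cells. The median of the members' mean levels was 3.82 FPKM, against 10.9 FPKM over all genes of the table, and the range was 0.421 to 63.0 FPKM. Of the 164 members, 21 lay under 1 FPKM, 46 lay between 1 and 3, 79 between 3 and 10, and 18 at 10 or above. A member had a median of 287 reads per library. The most abundant was ZNF146, which encodes a protein made almost wholly of zinc fingers with no KRAB domain, with 55.7, 52.2 and 56.9 FPKM in siChe-1 and 73.1, 63.4 and 76.8 FPKM in siControl. ZNF121 came next with 29.6, 27.3 and 35.0 FPKM in siChe-1 and 39.7, 32.1 and 45.9 FPKM in siControl. The groups were apart for ZNF146 and overlapped for ZNF121. ZNF791 had 32.2, 27.5 and 34.6 FPKM in siChe-1 and 29.4, 22.3 and 26.2 FPKM in siControl, again with overlap. ZNF675, which encodes an inhibitor of TRAF6 signalling, had 24.5, 20.5 and 25.6 FPKM in siChe-1 and 32.3, 22.6 and 29.7 FPKM in siControl. ZNF460 had 22.4, 25.3 and 32.2 FPKM in siChe-1 and 24.3, 22.0 and 21.3 FPKM in siControl. Both of these overlapped between the groups. All 164 members together summed to 834, 841 and 899 FPKM in siChe-1 and 942, 859 and 943 FPKM in siControl, so that the highest siChe-1 sum lay above the lowest siControl sum.

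Relative to other genes, few members changed. A test by limma on log2(FPKM + 1) took the 143 members with a mean of at least 1 FPKM. After rescaling of the 6 libraries on all tested genes, 10 members were lower and 6 were higher in siChe-1 at an adjusted p under 0.05. That is 11.2% of the tested members, against 27.2% of all 10778 genes tested, of which 13.8% were lower and 13.4% higher. Among genes with a mean of 1 to 10 FPKM, 12 of 125 members were called (9.6%), against 25.4% of all 4493 genes at that level. Of the 125 members, 6.4% were lower and 3.2% higher, against 8.08% and 17.3% of all genes at that level. The gap thus lay mostly in the genes called higher. Of 186 tested ZNF genes on other chromosomes, 18.3% were called, 5.91% lower and 12.4% higher. Of 574 tested chromosome 19 genes that are not members, 20.0% were called, 12.9% lower and 7.14% higher. Fewer rises than falls were thus not particular to the members. The other 21 members, under 1 FPKM, were not tested. On either side of that minimum lay ZNF155 and ZNF737, left out at 0.980 and 0.982 FPKM, and ZNF93 and ZNF446, kept at 1.03 and 1.04 FPKM. The members' median log2 change was -0.04, with quartiles of -0.15 and 0.12, against a median of 0.00 over all tested genes. The median was 0.09 over all genes at 1 to 10 FPKM and 0.07 over the ZNF genes on other chromosomes. It was -0.03 over the chromosome 19 genes that are not members, close to that of the members. None of the 143 reached a 2-fold change, and the range was -0.63 to 0.50. Of the tested members, 34 had all siChe-1 libraries below all siControl libraries (23.7% of all tested genes did) and 14 had all above (19.1% of all tested genes did), while 95 overlapped.

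The counts moved with scaling and with single libraries. With the FPKM as deposited, 10 members were lower and 3 higher, and with upper-quartile rescaling, 8 were lower and 8 higher. The members' median was then -0.06 and 0.01. Leaving out the library at list position 1, 2 or 3 left 4, 6 and 4 members lower for siChe-1 and 4, 10 and 3 for siControl. The members called higher then numbered 2, 4 and 1 for siChe-1 and 3, 3 and 2 for siControl. ZNF480, ZNF544, ZNF765 and ZNF333 kept their calls under each other setting in which they were tested, and the other 12 called members lost theirs under at least 1.

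The largest fall was that of ZNF468, a KRAB zinc finger gene (hg19, chr19:53341784-53360902, minus strand). It had 5.09, 4.29 and 6.46 FPKM in siChe-1 and 8.95, 7.96 and 9.54 FPKM in siControl. Every siChe-1 library lay below every siControl library. The log2 change was -0.63 with an SE of 0.13 (limma, adjusted p = 0.0135). ZNF544 (chr19:58740069-58775008, plus strand) had 4.20, 4.60 and 4.65 FPKM in siChe-1, against 7.10, 6.68 and 8.29 FPKM in siControl. Its 3 siChe-1 values were close together and all below siControl, and the log2 change was -0.58 with an SE of 0.09 (limma, adjusted p = 0.00466). ZNF480 (chr19:52800425-52829174, plus strand), one of the more abundant members, had 11.5, 9.81 and 11.5 FPKM in siChe-1 and 16.9, 15.7 and 18.6 FPKM in siControl. Its groups did not overlap either, and it fell by 0.57 on the log2 scale with an SE of 0.10 (limma, adjusted p = 0.00673). ZNF146 averaged 55.0 ± 2.43 FPKM in siChe-1 and 71.1 ± 6.93 FPKM in siControl (SD, n = 3 each), a log2 change of -0.33 with an SE of 0.10 (limma, adjusted p = 0.0392). ZNF565, on the other strand, is listed with the same bounds. All transcripts of a gene share such bounds, which are those of a locus and may be wider than the gene. No source used here says whether the strand entered the authors' counting. ZNF565 was far less abundant, with 2.26, 1.82 and 1.65 FPKM in siChe-1 and 2.25, 1.55 and 1.90 FPKM in siControl.

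The other 6 falls lay between -0.46 and -0.28 on the log2 scale. ZNF765 averaged 7.59 ± 0.674 FPKM in siChe-1 and 11.0 ± 0.723 FPKM in siControl (SD, n = 3 each), a log2 change of -0.46. ZNF614 averaged 6.97 ± 0.395 FPKM in siChe-1 and 9.87 ± 1.27 FPKM in siControl, a change of -0.41. ZNF180, ZNF562, ZNF761 and ZNF28 had log2 changes of -0.40, -0.34, -0.30 and -0.28. All 6 had siChe-1 libraries below all siControl libraries, with limma's adjusted p between 0.00974 (ZNF765) and 0.033 (ZNF28). ZNF28 rested on the summing of its transcripts: its most abundant transcript alone had a log2 change of 0.03.

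Among the 6 rises, ZNF333, a KRAB zinc finger gene (chr19:14800869-14831772, plus strand), moved most. It had 4.36, 4.76 and 4.68 FPKM in siChe-1 and 2.77, 3.01 and 3.30 FPKM in siControl. The groups did not overlap, and the log2 change was 0.50 with an SE of 0.09 (limma, adjusted p = 0.00597). ZNF358 (chr19:7581003-7585911, plus strand) had 13.3, 15.0 and 14.6 FPKM in siChe-1 and 10.6, 11.4 and 9.11 FPKM in siControl. It too was apart between the groups, with a log2 change of 0.46 and an SE of 0.10 (limma, adjusted p = 0.0165). ZNF226 had 5.91, 8.61 and 6.16 FPKM in siChe-1, against 4.78, 4.82 and 5.22 FPKM in siControl. A single siChe-1 value, 8.61 FPKM, stood above the other 2, and the adjusted p was 0.0451 by limma for a log2 change of 0.42. ZNF507, ZNF587 and ZNF175 changed by 0.36, 0.35 and 0.27 on the log2 scale. ZNF175, known as a repressor of HIV-1 transcription in macrophages, averaged 4.88 ± 0.373 FPKM in siChe-1 and 3.95 ± 0.0726 FPKM in siControl, and its adjusted p by limma, 0.0478, was the closest to the threshold.

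**Figure D1:**
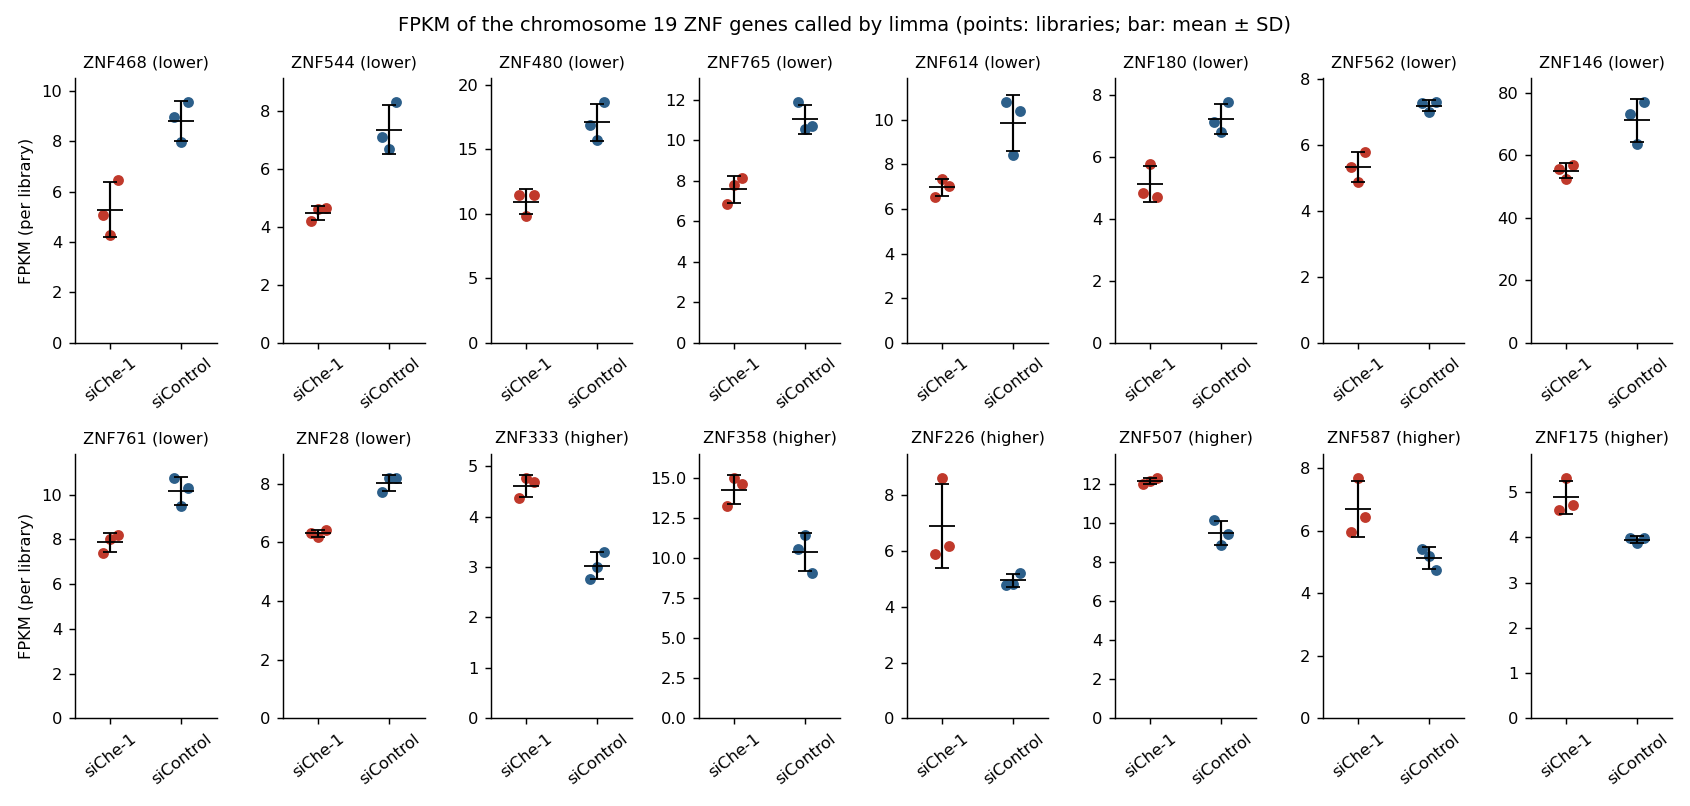
FPKM of the 16 chromosome 19 ZNF genes called by limma, in siChe-1 (left, red) and siControl (right, blue); each point is a library, each bar the mean ± SD of 3 libraries, and every axis starts at 0. In each of the 16 panels the 3 siChe-1 points lie wholly below (10 genes) or wholly above (6 genes) the 3 siControl points.

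Members with known targets outside these calls were named for that role and not by the rule used for the others. ZNF274, which brings SETDB1 to the 3′ ends of other zinc finger genes, had 4.80, 5.55 and 5.46 FPKM in siChe-1 and 5.48, 5.79 and 6.35 FPKM in siControl. ZNF91, a repressor of SVA retrotransposons, had 10.1, 10.1 and 11.1 FPKM in siChe-1 and 11.2, 9.88 and 10.3 FPKM in siControl. Both overlapped between the groups, with log2 changes of -0.11 and 0.03 (limma, adjusted p = 0.392 and 0.847). ZNF350, a repressor that works with BRCA1, had 4.49, 4.42 and 4.68 FPKM in siChe-1 and 4.75, 5.04 and 5.14 FPKM in siControl. Its siChe-1 libraries were all slightly lower, but the change of -0.09 did not pass (limma, adjusted p = 0.466).

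The position of the called members along the chromosome was examined next. Members whose starts lay within 1 Mb of a neighbour were joined, which gave 15 groups of 1 to 50 genes. The group at chr19:52074530-53961515 (hg19, in the distal part of the long arm) held 23 members, of which 21 were tested, and 6 of the 10 falls: ZNF614, ZNF480, ZNF28, ZNF468, ZNF765 and ZNF761. It was singled out after its values were seen, so its numbers are given as a description. Over all genes tested on FPKM, 13.8% were called lower. Its median log2 change was -0.20, and 18 of the 21 changes were negative, beside 49.7% over all genes tested on FPKM. The 122 tested members elsewhere on the chromosome had a median of -0.02, with 64 negative, 4 called lower and 5 called higher. With upper-quartile rescaling the median of this group was -0.15 and 17 of 21 were negative. With 1 library left out, the members of this group called lower numbered 3, 4 and 3 for siChe-1 list positions 1, 2 and 3, and 3, 5 and 2 for siControl list positions 1, 2 and 3.

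**Figure D2:**
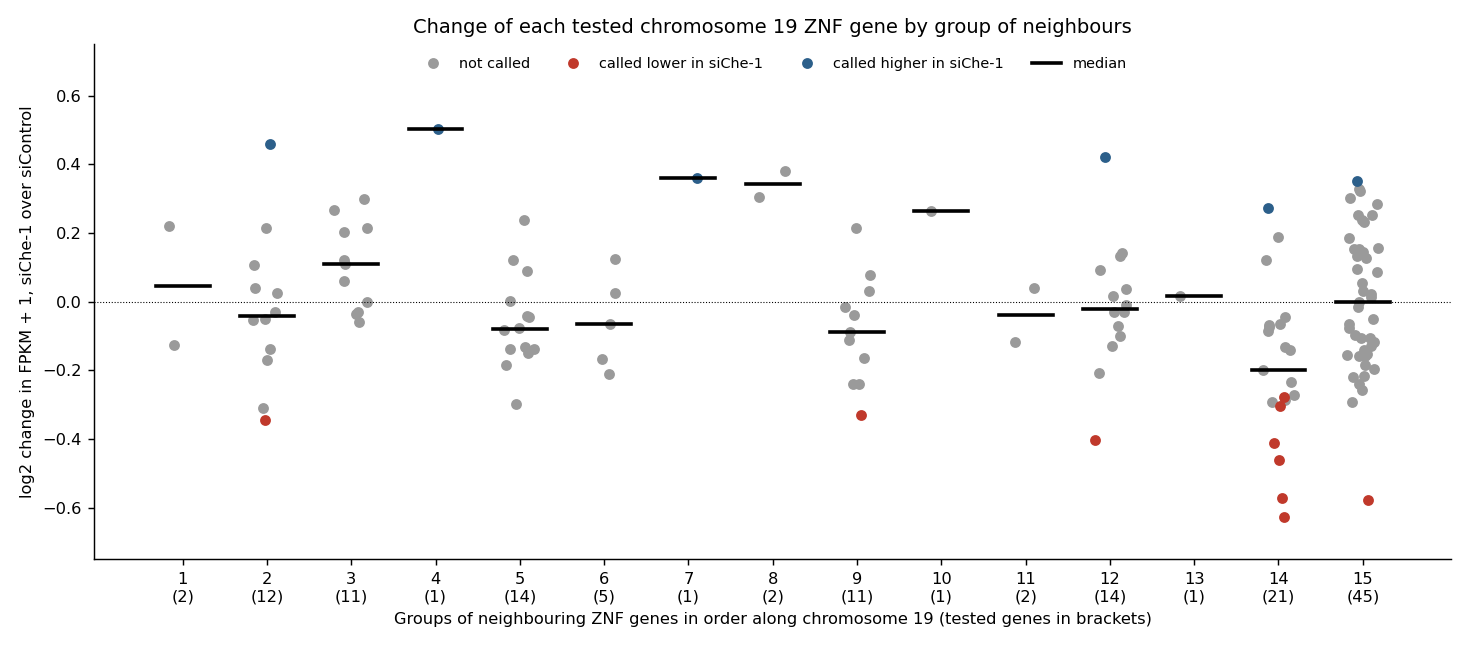
Log2 change in FPKM + 1, siChe-1 over siControl (vertical axis), of each of the 143 tested members in the 15 groups of neighbours, ordered along chromosome 19 with the number of tested members in brackets; red points were called lower, blue points higher, and black lines are group medians. Group 14, with 6 red points, has its median at -0.20, while the medians of the larger groups 2, 3, 5, 9, 12 and 15 lie between -0.09 and 0.11.

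Summed over the 23 genes, this group reached 104, 106 and 115 FPKM in siChe-1 and 139, 127 and 139 FPKM in siControl. All 3 siChe-1 sums lay below the lowest siControl sum. ZNF175, at the centromeric edge, was the 1 member called higher. Next to it among the tested members, ZNF350 and ZNF615 were not called, with changes of -0.09 and -0.07. ZNF841 and ZNF836 had positive changes of 0.12 and 0.19 that did not pass (limma, adjusted p = 0.503 and 0.175). The fall thus did not extend to every neighbour. At an unadjusted p under 0.05, 10 of the 21 were lower and 1 was higher by limma. The share of all genes at that unadjusted threshold was not computed, so these counts have no background. Within the span lay 2 other tested genes, of which limma and edgeR called 0, with 1 lower by limma at an unadjusted p under 0.05. PPP2R1A, a scaffold subunit of protein phosphatase 2A, had 33.0, 43.1 and 37.6 FPKM in siChe-1 and 33.3, 42.8 and 37.7 FPKM in siControl, with a log2 change of 0.03. LOC147804, listed with the same locus bounds as ZNF761 on the same strand, changed by -0.21 (limma, adjusted p = 0.114). Neighbours in such arrays are close in sequence, and no source used here says how reads that match several genes were assigned. The separate values of ZNF468, ZNF28, ZNF765 and ZNF761 are uncertain to that extent.

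**Figure D3:**
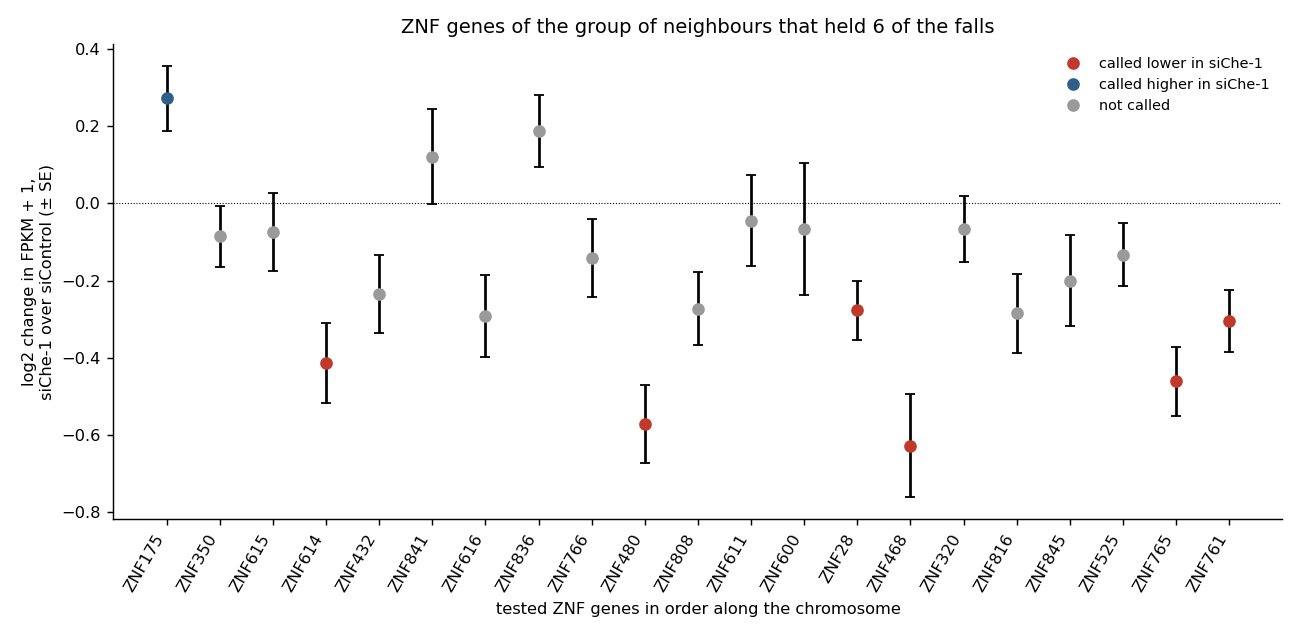
Log2 change in FPKM + 1, siChe-1 over siControl, with its SE from limma, for the 21 tested ZNF genes at 52.1 to 54.0 Mb, in order along the chromosome. ZNF468 lies lowest at -0.63 and ZNF175, at the left edge, highest at 0.27; 6 red points were called lower, and grey points were not called.

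Among the groups with at least 5 tested members, the medians of the others lay between -0.09 and 0.11. Higher medians than these stood in groups of 1 or 2 genes, whose members are named here after their values were seen. ZNF333 and ZNF507, both called higher, each stood alone. The pair ZNF302 and ZNF181 had changes of 0.38 and 0.30 that did not pass (limma, adjusted p = 0.0833 and 0.153), with libraries that overlapped between the groups. ZNF546, alone in its group, had 1.98, 2.24 and 2.43 FPKM in siChe-1 and 1.54, 1.73 and 1.88 FPKM in siControl. Its libraries did not overlap, but the change of 0.27 did not pass (limma, adjusted p = 0.0811). The largest group, 50 members at chr19:55987698-58992597, had 1 member lower (ZNF544) and 1 higher (ZNF587) among 45 tested, with a median of 0.00. Its most abundant gene was ZNF460. In the group of 12 at chr19:11594241-12740676, whose most abundant gene was ZNF791, the median was 0.11, no member was called by limma, and 1 of 11 was higher at an unadjusted p under 0.05; edgeR on the reads described below called 0 there. The group of 16 at chr19:19779662-21950430 also had no call by limma among 14 tested, with 1 lower and 1 higher at an unadjusted p under 0.05, while edgeR on reads called 1 lower, ZNF90. There, ZNF253 was the most abundant, with 13.2, 12.2 and 13.5 FPKM in siChe-1 and 15.0, 12.7 and 13.5 FPKM in siControl, and ZNF90 changed most, by -0.30 (limma, adjusted p = 0.0719). The 18 members at chr19:44100543-45579688 held a fall (ZNF180) and a rise (ZNF226), and their most abundant gene, ZNF227, changed by 0.02. With a joining distance of 0.5 Mb there were 19 groups, and the group with 6 falls kept the same bounds.

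Whole reads recovered from the authors' normalized means gave a second view of the relative change, in 5 libraries and on counts. The 2 views share libraries and are not independent. edgeR's quasi-likelihood test with TMM scaling took 160 members, those with a mean normalized count of at least 10, and called 11 lower and 7 higher (28.8% of 12462 genes were called, 14.8% lower and 14% higher). With upper-quartile scaling 6 were lower and 10 higher. Of the 142 members tested on both scales, 7 were called lower on both, 5 were called higher on both and none was called in opposite directions. The sign matched in 127. Over these 142 genes the log2 changes had a Pearson r of 0.93 and a Spearman rho of 0.93.

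ZNF468 had 429 and 460 reads in siChe-1 replicates 1 and 2, against 778, 740 and 907 reads in siControl replicates 1, 2 and 3. With similar totals per library the groups were clearly apart, and the log2 change was -0.87 with an SE of 0.13 (edgeR, adjusted p = 0.000284). ZNF562 had 578 and 627 reads in siChe-1 and 897, 900 and 996 reads in siControl, a change of -0.64, larger than the -0.34 on FPKM. ZNF333 had 479 and 531 reads in siChe-1 and 302, 317 and 321 reads in siControl, and rose by 0.68 with an SE of 0.13 (edgeR, adjusted p = 0.00161). Called on reads but not on FPKM were ZNF121, ZNF90, ZNF566 and ZNF814, all lower, and ZNF264, higher. ZNF497, too low for the FPKM test, had 28 and 31 reads in siChe-1 and 6, 8 and 16 reads in siControl, and was called higher with a log2 change of 1.54 (edgeR, adjusted p = 0.0117). Its FPKM overlapped, with 0.503, 0.412 and 0.609 in siChe-1 and 0.413, 0.441 and 0.470 in siControl. ZNF180, ZNF761, ZNF28 and ZNF175 were called on FPKM only, with adjusted p between 0.0584 and 0.0713 by edgeR on reads.

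**Figure D4:**
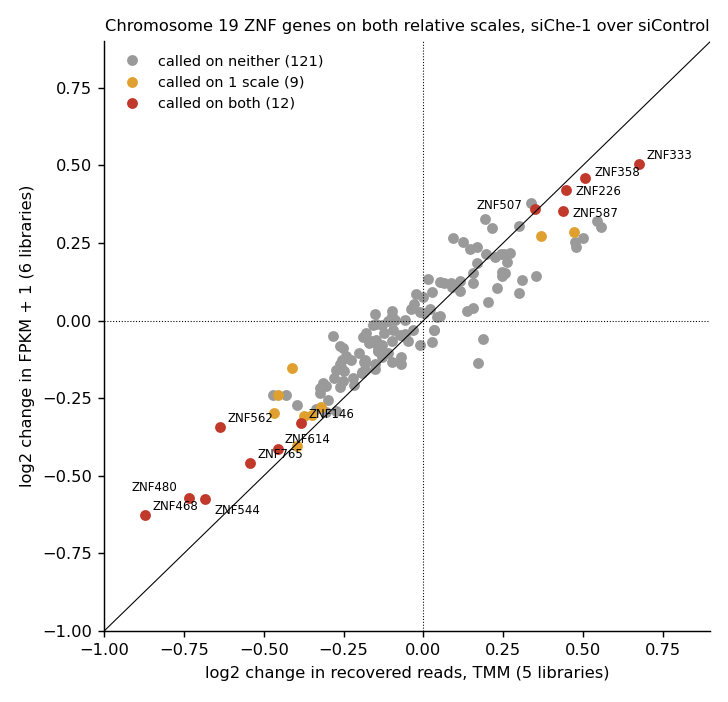
Log2 change, siChe-1 over siControl, from recovered reads with TMM scaling (horizontal axis, 5 libraries) and from FPKM + 1 (vertical axis, 6 libraries), for the 142 members tested on both; the diagonal marks equal change. The 12 red points were called in the same direction on both scales, among them ZNF468 at the lower left and ZNF333 at the upper right. Of the 142 members, 127 had the same sign on both.

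The 2 siChe-1 libraries of this table were not alike for these genes. On TMM-scaled reads, the members' median log2 difference from the siControl mean was -0.18 in siChe-1 replicate 1 and 0.00 in siChe-1 replicate 2, against 0.04, -0.03 and -0.01 in siControl replicates 1, 2 and 3. Members took 0.348% and 0.390% of the recovered reads in siChe-1 and 0.381%, 0.376% and 0.369% in siControl, so the siControl libraries lay between the siChe-1 libraries. In the group of 23 the summed TMM-scaled CPM values were 472 and 579.8 in siChe-1 and 683, 659.6 and 679.8 in siControl, with both siChe-1 libraries lower and replicate 1 lowest. There 4 of 23 members were called lower by edgeR, beside 14.8% of all genes tested on reads. Negative changes stood in 20 of 23, beside 50.1% of all genes tested on reads. Without siChe-1 replicate 1, 4 of all members were called lower and 7 higher. Without siChe-1 replicate 2 the counts were 11 and 2. Each of these 2 fits leaves a lone siChe-1 library, which is assumed to vary like the siControl libraries. Without siControl replicates 1, 2 and 3 they were 5, 16 and 5 lower and 6, 11 and 2 higher. In the group of 23 the same omissions left 2 and 6 lower for siChe-1 replicates 1 and 2, and 3, 5 and 3 for siControl replicates 1, 2 and 3. ZNF468, ZNF544, ZNF480, ZNF562 and ZNF333 kept their calls on reads under each other setting run.

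Against the spike-ins, the members fell with nearly all other genes. In the authors' deposited table, which holds the siChe-1 mean of 2 libraries and the siControl mean of 3, 121 of the 160 members with a mean of at least 10 were lower in siChe-1 and 0 were higher at an adjusted p under 0.05. Over all 12591 genes of the authors' deposited table with that minimum, 63.6% were called, 63.5% lower and 0.0635% higher. No member was higher at an unadjusted p under 0.05 in the authors' deposited table, and 134 were lower. The median log2 fold change in the authors' deposited table was -1.33 for the members, with quartiles of -1.48 and -1.07, and -1.25 for all genes. By the authors' deposited table the median was -1.21 for ZNF genes on other chromosomes and -1.25 for the other chromosome 19 genes. The fall rests on siChe-1 replicates 1 and 2. In siChe-1 replicate 3, not among the libraries of that mean, the number of spike-in reads lay within the siControl range. The depth of that library is not known, so this number cannot be set against its gene reads. Each library started from 500 ng of RNA, and the step at which the spike-ins were added is not given here. In bulk RNA, fewer cells, less RNA per cell and unequal amounts of spike-in cannot be told apart on this scale.

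The spike-in scale and the TMM scale use the same reads and differ by a factor per library, so their gene orders are not independent. In the authors' deposited table ZNF468 had the lowest value of the members, with normalized means of 264 in siChe-1 and 1143 in siControl and a log2 fold change of -2.11. Next in the authors' deposited table stood ZNF480 at -1.99, ZNF544 at -1.93, ZNF562 at -1.88 and ZNF765 at -1.80. All 10 members that were lower on FPKM were also lower in the authors' deposited table. The 6 members that rose relative to other genes had negative log2 fold changes in the authors' deposited table, -0.57 for ZNF333 to -0.89 for ZNF175, with adjusted p between 0.057 and 0.293. ZNF333, for instance, had 320.2 and 278 spike-normalized reads in siChe-1 replicates 1 and 2, against 336, 512 and 484 in siControl replicates 1, 2 and 3. ZNF146 had 3171 and 3059 in siChe-1, against 7434, 10422 and 11116 in siControl. The siChe-1 values were lower in both, with a far smaller gap for ZNF333. Among the 160 members past the minimum, ZNF497 had the only positive value in the authors' deposited table, 0.26, with an adjusted p of 0.775. In the group of 23, 21 members were lower in the authors' deposited table, beside 63.5% of all genes. The group's median was -1.53, against -1.28 for the members outside it.

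**Figure D5:**
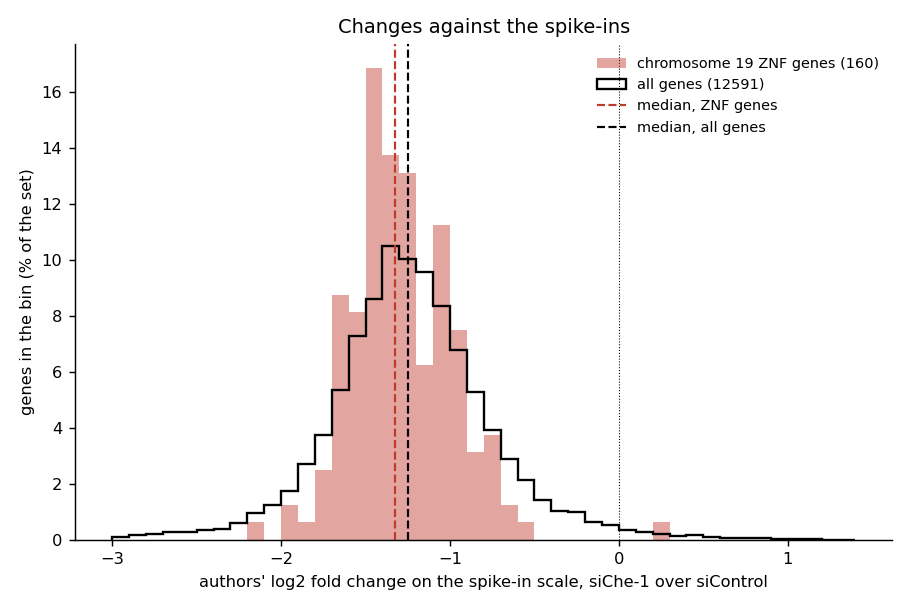
Distribution of the authors' log2 fold change on the spike-in scale, siChe-1 over siControl, for the 160 chromosome 19 ZNF genes (filled) and for all 12591 genes with a mean of at least 10 (outline), as percent of each set per bin; dashed lines are medians, and genes beyond the axis are not drawn. Both distributions lie almost wholly below 0, with medians of -1.33 and -1.25.

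Tested per library, the fall on the spike-in scale covered most members. With the recovered reads and the authors' size factors, edgeR called 150 of 160 members lower and 0 higher (84.5% of 12462 genes were called, 84.3% lower and 0.193% higher). No member was higher at an unadjusted p under 0.05 by edgeR, and 152 were lower. In 157 of the 164 members, tested or not, all siChe-1 libraries lay below all siControl libraries. Among the 12462 tested genes, 89.5% did. The members' median log2 difference from the siControl mean was -1.30 and -1.38 in siChe-1 replicates 1 and 2, and -0.36, 0.17 and 0.13 in siControl replicates 1, 2 and 3. siControl replicate 1 thus lay lower than the other siControl libraries, as it did for all genes (-0.41). Without siChe-1 replicate 1, 89 members were called lower, and without siChe-1 replicate 2, 26 were. Here too the lone siChe-1 library is assumed to vary like the siControl libraries.

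Genes with several transcripts showed how unsettled the split of FPKM among them was. Of the 164 members, 39 had more than 1 transcript, and in 10 of these the authors' deposited table gives changes of at least 0.5 on the log2 scale in opposite directions. They were ZNF20, ZNF234, ZNF419, ZNF507, ZNF566, ZNF583, ZNF586, ZNF615, ZNF682 and ZNF790. The transcript NM_001136156 of ZNF507 had 11.5, 5.04 and 12.3 FPKM in siChe-1 and 2.89, 6.0 and 5.39 FPKM in siControl. The other transcript of ZNF507, NM_014910, had 0.556, 7.13 and 0.0347 FPKM in siChe-1 and 7.25, 2.89 and 4.03 FPKM in siControl. Within siChe-1 one transcript was low where the other was high, while the gene's sum was 12.0, 12.2 and 12.3 FPKM in siChe-1 and 10.1, 8.89 and 9.42 FPKM in siControl. Among these 10 genes, ZNF682 alone had a transcript past the threshold. Its NM_001077349 had 1.69, 0.960 and 1.09 FPKM in siChe-1 and 0.366, 0.314 and 0.533 FPKM in siControl, with a q-value of 0.00292 in the authors' deposited table. The gene sum of ZNF682 overlapped between the groups, with 1.69, 1.40 and 1.09 FPKM in siChe-1 and 1.29, 1.16 and 1.36 FPKM in siControl.

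For 4 members the FPKM and the reads could not be reconciled. ZNF177 had 0 recovered reads in each of the 5 libraries but averaged 0.413 FPKM in siChe-1 and 0.440 FPKM in siControl. ZNF559 is listed with the same locus bounds on the same strand. ZNF20 had 3 and 4 reads in siChe-1 and 2, 4 and 0 reads in siControl, with means of 1.60 FPKM in siChe-1 and 1.70 FPKM in siControl. ZNF506 and ZNF154 had at most 3 reads in any library. ZNF20 was not called on FPKM, the other 3 lay under 1 FPKM and were not tested there, and none of the 4 was tested on reads. In all, the listed bounds of 10 members overlap those of another listed gene, 6 of them on the same strand. Since these are bounds of a locus, they do not show that the genes themselves overlap.

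Genes for the machinery that KRAB zinc finger proteins recruit were measured beside the members. Of 26 such genes, 24 were listed and tested. By limma, 0 were lower and 2 were higher, FAM208A by 0.31 and HDAC1 by 0.29 on the log2 scale, beside 27.2% of all genes called. Each of these 2 lost its call in 9 of 14 other settings. At an unadjusted p under 0.05, 2 were lower and 3 higher by limma. On reads, edgeR with TMM scaling called 2 lower and 0 higher, beside 28.8% of all genes called, with 2 lower and 2 higher at an unadjusted p under 0.05. The 2 were CBX3, a heterochromatin protein that binds methylated H3, and SUV39H2, an H3 lysine 9 methyltransferase, each with a log2 change of -0.38 (edgeR, adjusted p = 0.0187 and 0.0241). On FPKM their siChe-1 libraries also lay below all siControl libraries, with changes of -0.28 and -0.27 that did not pass (limma, adjusted p = 0.0797 and 0.120). TRIM28, the scaffold, had 36.7, 53.3 and 48.7 FPKM in siChe-1 and 44.6, 62.2 and 60.4 FPKM in siControl. SETDB1, the methyltransferase, had 28.3, 25.0 and 32.2 FPKM in siChe-1 and 26.5, 20.3 and 31.1 FPKM in siControl. Both overlapped widely, with log2 changes of -0.23 and 0.17 (limma, adjusted p = 0.312 and 0.450). All 24 were called lower in the authors' deposited table, in which 63.5% of all genes were, with a median of -1.25, the same as for all genes.

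Structural features of the members were set beside the change. The number of C2H2 finger patterns in the longest open reading frame of the GENCODE 29 transcripts had a median of 12 and ranged from 1 in ZNF428 to 32 in ZNF91. Over the 143 tested members, its Spearman rho with the log2 change was 0.05. The rho was 0.08 for coding length and -0.17 for mean FPKM, which is also part of the change itself, and -0.03 for the GC content of 131 promoters. A letter pattern typical of KRAB domains was found in 125 of 164 members, in 7 of the 10 lower, in 4 of the 6 higher and in 99 of the 127 tested members that were not called. It misses diverged copies, so these are minimum counts.

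A promoter window was at hand for 150 members, and many of these windows held the ETS core. CCGGAAG or its reverse complement stood in 48% of them, against 10.7% of all 27305 promoters, 21.8% of 8530 promoters of genes with a mean of at least 1 FPKM and 20.3% of 521 other chromosome 19 promoters. Among 171 ZNF promoters on other chromosomes the share was 42.1%, close to that on chromosome 19. The core stood in 3 of 8 lower members, 4 of 6 higher members and 56 of 117 members that were not called, and these shares were not tested against each other. In the group with 6 falls it stood in 13 of 20. The GC box GGGCGGG was found in 52.7% of the members' windows, against 54.4% of promoters of genes with a mean of at least 1 FPKM, 58.5% of other chromosome 19 promoters and 32.9% of all promoters. CCAAT stood in 51.3% of the members' windows, against 38.3%, 43.2% and 35.7% of the same 3 sets. TATAAA stood in 2.67% of the members' windows, against 5.49%, 5.18% and 12.0%. Among the 171 ZNF promoters on other chromosomes, the GC box stood in 43.9%, CCAAT in 48.0% and TATAAA in 5.26%. The share with CCAAT was thus close to that on chromosome 19. Each motif was read on either strand. None of the 4 motifs contains another, and a match is only a run of letters, not a bound site.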

How the data were processed

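RNA from siChe-1 and siControl libraries of KMS-27 was measured, and groups came from the sample titles. The submitters' processing notes name hg19 with TopHat, Cufflinks, Cuffdiff, HTSeq and DESeq2, and state neither version nor role. The authors deposited raw counts of 92 spike-ins, per the file headers. They also deposited a gene table whose signal is the read count divided by a spike-in size factor and averaged by group, per the file headers. Beside it the authors deposited the fold change as a ratio, its log2, and p-values with adjusted p. For transcripts the authors deposited group FPKM, FPKM lists per group, their log2 ratio and q-values, per the file headers.

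From these, FPKM was summed by gene, each library was divided by its median ratio to the genes' geometric means, and log2(FPKM + 1) of genes with a mean of at least 1 was tested with limma 3.58.1 with a variance trend. Folds on this scale understate the change of low genes. Since the gene table holds means, whole reads were recovered from it for 16315 of 16444 genes (99.2%), to a relative tolerance of 1e-14, with siChe-1 replicates 1 and 2 and siControl replicates 1 to 3. All 2139 low siChe-1 means and all 1327 low siControl means were whole-read sums (100%) for this set of libraries, and 0% for any other. The recovered reads were tested with edgeR 4.0.16 (quasi-likelihood, mean of at least 10), and DESeq2 1.42.0 was an alternative. On the spike-in scale, differences in scale between libraries of a group enter each gene's SE (AATF, 0.375, against 0.121 with TMM). An error in the scale of a library is shared by all its genes, so the calls are not separate evidence. The p-values do not hold a difference in the amount of spike-in added between the groups.

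Tests were two-sided, with Benjamini-Hochberg adjustment over all genes tested and a threshold of 0.05. Counts at an unadjusted p under 0.05 stand without the share over all genes, which was not computed, and are descriptions only. Named members are the called ones, the 5 most abundant, the most abundant and most changed of each group with at least 5 tested members, and those with transcripts changing in opposite directions. The members, lists and rules were chosen with earlier results of these data known. The scripts were tested on simulated data. Promoters are RefSeq's on GRCh38.p14, finger and KRAB patterns came from GENCODE 29 transcripts with Biopython 1.88, and all other coordinates are those of the files (hg19).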

Additional observations from a re-analysis of the deposited data

How the results depend on the processing

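On FPKM, the members called lower and higher (10 and 6) numbered 2 and 3 with a minimum mean of 10 FPKM, where 18 members were tested, and 6 and 3 with the most abundant transcript alone. The members called higher numbered 3 without a minimum and 3 with the deposited scaling. Leaving out 1 library gave 3 to 10 lower and 1 to 4 higher. Within the group at 52.1 to 54.0 Mb, falls on FPKM (6) numbered 1 with a minimum of 10 FPKM, where 2 of its members were tested, and 2 to 5 without 1 library. On reads with TMM (11 lower, 7 higher), 6 were lower with upper-quartile scaling, and leaving out 1 library gave 4 to 16 lower and 2 to 11 higher, and 2 to 6 lower in that group. On the spike-in scale (150 lower), leaving out 1 library gave 26 to 159 lower and 0 to 0 higher. In the authors' deposited table (121 lower), 64 were lower at an adjusted p of 0.01. The log2 change of ZNF28 on FPKM turned to 0.026 with its most abundant transcript alone. A minimum of 10 FPKM leaves fewer genes and an omitted library fewer samples; for the other settings the cause was not tested.

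Same-numbered libraries could be paired for replicates 1 and 2 only, whose residuals correlated at 0.214 and 0.235 over 12462 genes. With 2 pairs the numbers were not taken as a pairing. With a replicate block, edgeR called 14 members lower and 8 higher on TMM, 7 lower in the group at 52.1 to 54.0 Mb, and 0 lower on the spike-in scale.

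Over the named genes, 837 values under other settings held 120 lost calls, 15 gained calls and 1 reversal. Pseudocounts of 0.1 and 0.5, no variance trend, DESeq2 and median-of-ratios scaling left the counts of members within 1.5 times those reported. The 21 members under 1 FPKM were not tested on FPKM, but 18 of them were tested on reads. The 4 members with a mean under 10 normalized reads were not tested on reads; whether depth limits them was not tested.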
